A study of Homo sapiens with 8 samples.

Results

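The mRNAs of 10 genes with which a cell takes up, stores, releases and senses iron were followed through nickel exposure and wash-out: TFRC, STEAP3, SLC11A2 and SLC25A37 (uptake and transport), FTH1, FTL and NCOA4 (storage), SLC40A1 (export), and ACO1 and IREB2 (sensing). They were chosen by gene symbol, with earlier results of these data known, from the 25411 genes listed for each library. All 10 were found there. RNA-Seq had been carried out on BEAS-2B, a human bronchial epithelial line that was immortalised in culture, and the labels placed 8 libraries in 4 groups of 2. The question was which genes differ from untreated cells while nickel is present, and which differ after it has been taken away.

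Untreated BEAS-2B cells (UT) served as the reference. The Ni-E cells, exposed to nickel, were grown with 100 µM NiCl2, a soluble nickel salt, over 6 weeks and were examined at the end of that time. Nickel-washed-out cells (Ni-W) went through the same exposure, were then plated thinly so that each colony came from a single cell, and 1 such population was expanded in medium without nickel beyond 6 months. HCl3 carried the treatment text of Ni-W, while its time without nickel and its relation to Ni-W were not given by its labels. Ni-W cells thus descend from 1 cell, whereas UT and Ni-E are mixed populations, so that wash-out and descent from a single cell cannot be told apart. Experiment numbers in the labels differ between Ni-E and HCl3 and are missing for UT and Ni-W, so that the experiment and the group cannot be told apart either.

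Cells import iron bound to transferrin through the transferrin receptor, reduce it in the endosome and carry it into the cytosol, where it is used in mitochondria or stored inside ferritin. The only known cellular exporter of iron is ferroportin. When iron is scarce, the iron-regulatory proteins bind to hairpins called iron-responsive elements (IREs). A bound hairpin in the 5′ UTR blocks translation of the mRNA, while bound hairpins in the 3′ UTR protect it from decay, so that transferrin receptor mRNA and ferritin protein normally move in opposite directions. An RNA-Seq value therefore captures the control of TFRC at its mRNA but not the translational control of FTH1, FTL and SLC40A1.

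The hairpins are shown because they mark where a canonical IRE hairpin was found, and in which UTR. UTRs of GENCODE v44 transcripts (hg38) were searched on the mRNA strand for a C, 5 bases of stem, the loop CAGTGN, in which N was any base but G, and 5 bases able to pair with the stem, with G-T pairs allowed. Of all genes searched, 0.0604% held such a hairpin in the 5′ UTR and 0.517% in the 3′ UTR. FTH1, FTL and SLC40A1 each had 1 in the 5′ UTR, and TFRC had 4 in the 3′ UTR. Each sequence below is 30 bases long, and capitals mark the loop.
FTH1 5′ UTR, chr11:61967573-61967602, minus strand: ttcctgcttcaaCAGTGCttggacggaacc
FTL 5′ UTR, chr19:48965335-48965364, plus strand: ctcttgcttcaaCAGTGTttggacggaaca
SLC40A1 5′ UTR, chr2:189580660-189580689, minus strand: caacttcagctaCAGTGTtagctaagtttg
TFRC 3′ UTR, chr3:196050978-196051007, minus strand: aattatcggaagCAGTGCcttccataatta
TFRC 3′ UTR, chr3:196050574-196050603, minus strand: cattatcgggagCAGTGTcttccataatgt
TFRC 3′ UTR, chr3:196050509-196050538, minus strand: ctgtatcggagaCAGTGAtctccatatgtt
TFRC 3′ UTR, chr3:196050462-196050491, minus strand: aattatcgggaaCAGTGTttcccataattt

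The 3 hairpins in 5′ UTRs belong to mRNAs of storage and export, and the 4 in the 3′ UTR to the mRNA of uptake. SLC11A2, ACO1, IREB2, NCOA4 and STEAP3 held no match, which says only that these letters are not in their annotated UTRs. No result of the search is given here for SLC25A37. A match describes the sequence and does not show that a protein binds it in these cells.

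Between 26383920 and 45692298 reads were counted per library. At that depth the members had from 9 reads, for SLC40A1 in a Ni-E library, to 79278 reads, for FTL in a Ni-W library, and each member other than SLC40A1 had at least 301 reads in each library. The study calls its 2 libraries per group biological replicates. P values set a difference against the spread between such libraries, which DESeq2 estimates partly from all genes. Of 12 epithelial markers, KRT7, KRT8 and KRT18 were between 144 and 481 RPKM (reads per kilobase of exon, scaled to the mapped reads of the library), whereas KRT5, KRT14, TP63, SCGB1A1 and FOXJ1, which define basal, club and ciliated cells, were below 0.1 RPKM in each library and CDH1 did not exceed 0.11 RPKM. The summed epithelial markers were 579 to 794 RPKM in UT and Ni-E and 935 to 996 RPKM in Ni-W and HCl3. All 4 erythroid markers, 4 of 5 leukocyte markers, 2 of 3 endothelial and 2 of 3 hepatocyte markers, and 2 of 5 fibroblast markers were below 0.1 RPKM in each library. Those above were CD14, from 1.06 to 1.96 RPKM in UT and Ni-E and from 2.84 to 4.15 RPKM in Ni-W and HCl3, and COL1A1, from 178 to 454 RPKM, with the remainder at 2.05 RPKM or less. Their part in the results was not tested.

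**Figure D1:**
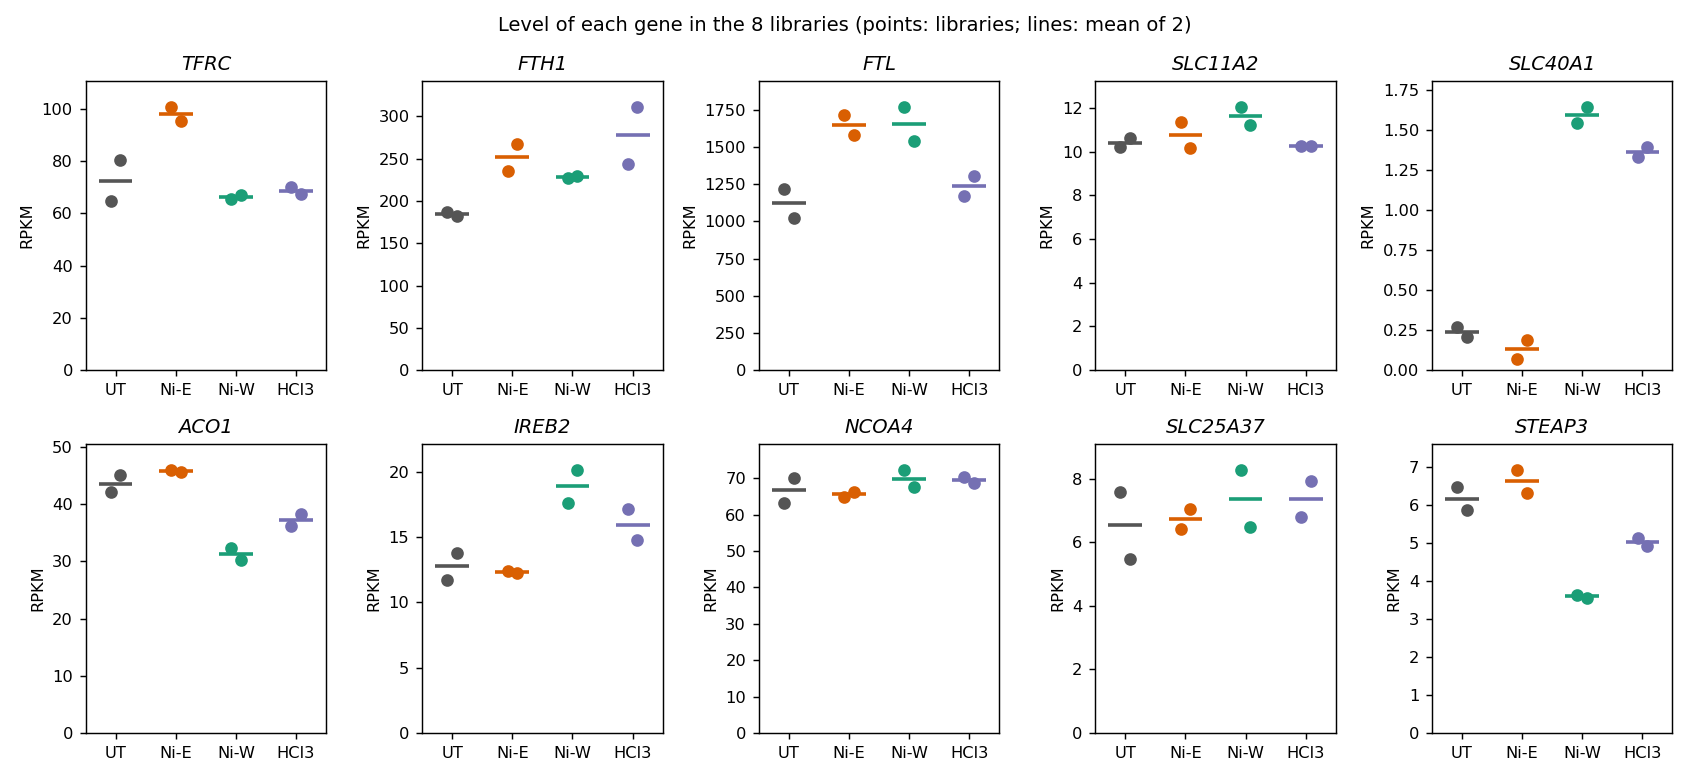
Level of each of the 10 genes in RPKM (vertical axes, each starting at 0) in the 2 libraries of UT, Ni-E, Ni-W and HCl3. Points are libraries and lines are means of 2. TFRC is highest in Ni-E, SLC40A1 is at or above 1.33 RPKM in Ni-W and HCl3 alone, and NCOA4 stays between 63.1 and 72.2 RPKM.

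Levels differed over several orders of size. FTL was the most abundant member, at 1025 to 1767 RPKM and between the 4th and 27th place among all genes of a library. FTH1 followed at 182 to 310 RPKM, then TFRC, NCOA4 and ACO1 between 30.2 and 101 RPKM, IREB2, SLC11A2, SLC25A37 and STEAP3 between 3.55 and 20.1 RPKM, and SLC40A1 between 0.07 and 1.64 RPKM. In bulk RNA, fewer cells that express a gene and less mRNA per cell cannot be told apart.

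Each pair of groups was compared with DESeq2, and a gene was called when its adjusted P value was under 0.05 and it changed by at least 1.5-fold. All 10 members passed the filter on low counts in each of the 6 comparisons. While nickel was present, 3 of the 10 rose at the adjusted P value alone, against 11.6% of 14478 genes tested (6.08% higher and 5.52% lower), and 0 were called, against 5.8% of genes. The 3 were TFRC, FTH1 and FTL, no other member had an unadjusted DESeq2 P value under 0.05, and edgeR also called 0. After wash-out, 6 of 10 members differed between Ni-W and UT, 4 higher and 2 lower, against 31.1% of genes (17.5% higher and 13.6% lower), and 2 were called, against 15.7%. In HCl3, 4 of 10 differed from UT, 2 higher and 2 lower, against 31.4% (17.1% higher and 14.3% lower), and 1 was called, against 14.8%.

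Set against Ni-E, 5 members differed in Ni-W, 2 higher and 3 lower, against 39.2% of genes (19.8% higher and 19.4% lower), and 3 were called, against 20.5%. In HCl3, 6 members differed from Ni-E, 2 higher and 4 lower, against 37.6% (18.4% higher and 19.2% lower), and 1 was called, against 17.1%. The washed-out populations differed from each other in 4 members, 3 higher and 1 lower in HCl3, against 16.6% (8.45% higher and 8.1% lower), and 0 were called, against 4.77%; at an unadjusted P value under 0.05 these were 6 members, and edgeR also called 0. The comparisons share libraries, UT standing in 3 of them, so that their counts are not independent. SLC11A2, NCOA4 and SLC25A37 passed in none of the 6. The median absolute log2 fold change of the members was 0.093 in Ni-E against UT, where that of all genes was 0.22, and 0.40 in Ni-W against UT, where that of all genes was 0.34.

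**Figure D2:**
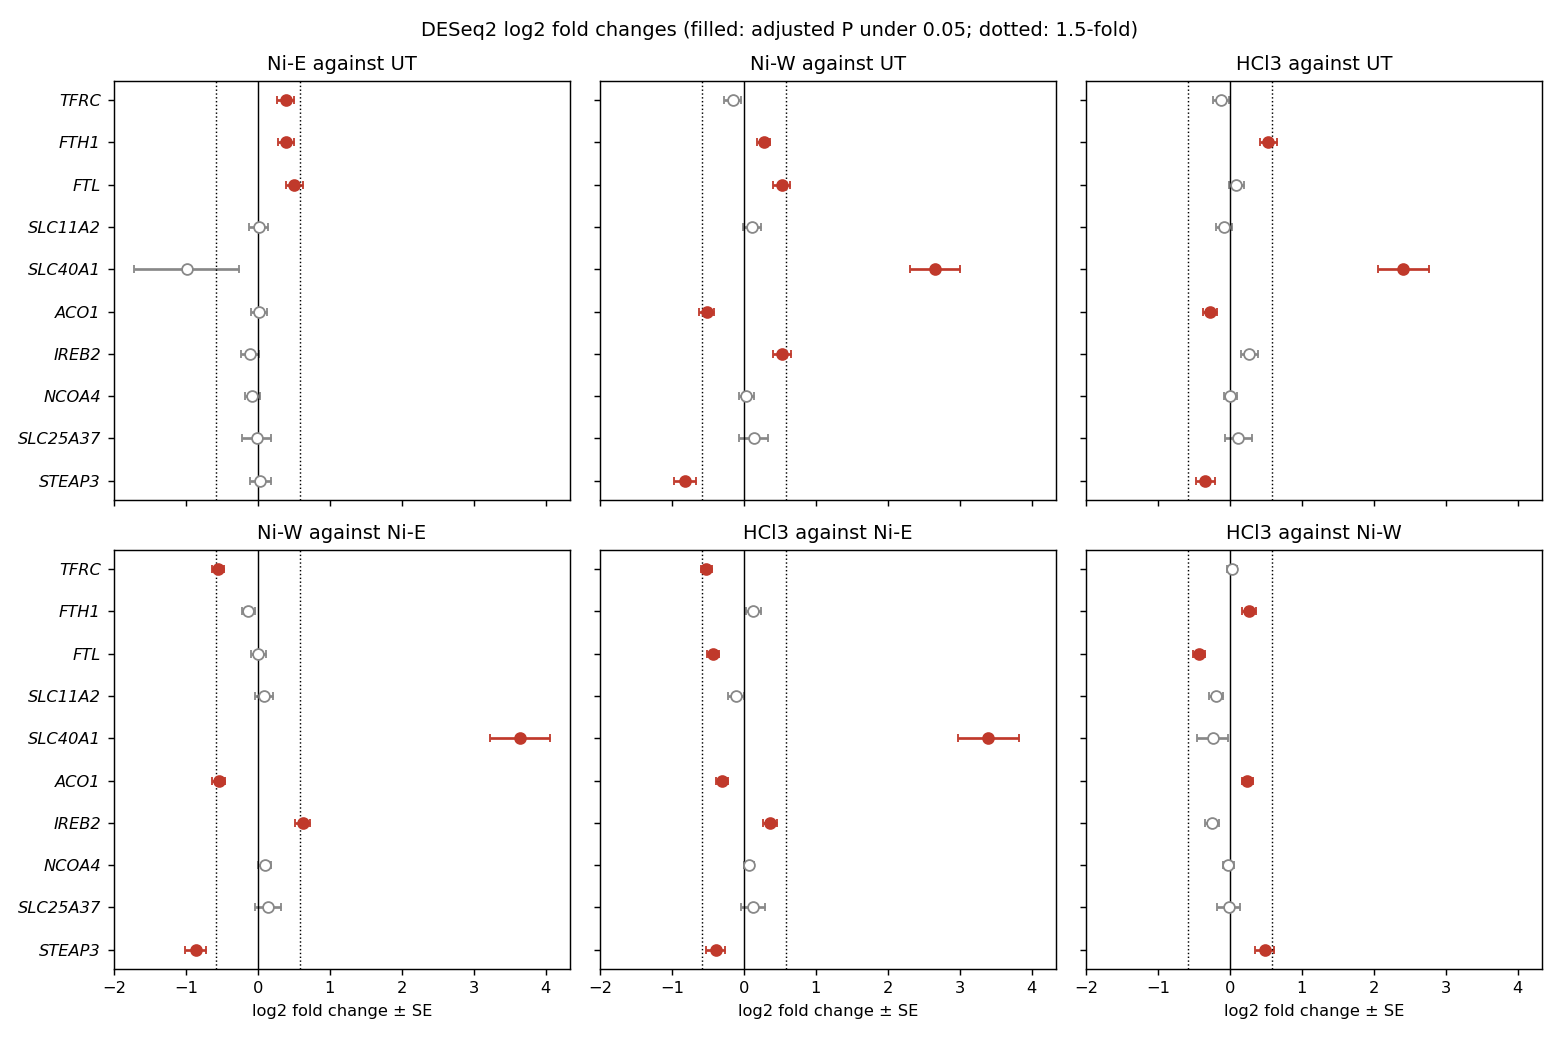
Log2 fold change of each gene in the 6 comparisons of groups (horizontal axes), with bars of 1 standard error from DESeq2. Filled points passed an adjusted P value of 0.05 and dotted lines mark 1.5-fold. In Ni-E the filled points are TFRC, FTH1 and FTL, and SLC40A1 lies farthest to the right in Ni-W and HCl3, at 2.66 and 2.41 against UT.

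TFRC, on chromosome 3 (hg19, 195776155 to 195809032, minus strand), encodes the receptor that takes iron-loaded transferrin into the cell. It was at 64.7 and 80.3 RPKM in UT, 101 and 95.6 RPKM in Ni-E, 65.4 and 67.1 RPKM in Ni-W, and 70.1 and 67.3 RPKM in HCl3. Both Ni-E libraries stood above the other 6, and the Ni-W and HCl3 libraries lay within the range of UT. In Ni-E the mRNA was 1.30-fold higher than in UT (log2 fold change 0.38 ± 0.12 SE, DESeq2 adjusted P = 0.0206). It was 1.47-fold lower in Ni-W than in Ni-E (-0.55 ± 0.09, DESeq2 adjusted P = 4.5e-09) and 1.44-fold lower in HCl3 than in Ni-E (-0.53 ± 0.08, 9.95e-11).

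Against UT, TFRC gave -0.16 in Ni-W (95% interval -0.38 to 0.07) and -0.13 in HCl3 (-0.34 to 0.08). The order of group means was Ni-E, UT, HCl3 and Ni-W, of which the last 3 did not differ from each other in this test. Without UT 1 both became larger, at -0.30 (DESeq2 adjusted P = 0.0483) and -0.27 (0.00053), and the value of Ni-W also passed with GC content and length trends removed (-0.19, 0.0347). The rise in Ni-E was 0.24 without UT 1 (DESeq2 adjusted P = 0.287), and it also missed the threshold without either Ni-E library (0.446 and 0.146) and in edgeR (0.0642), while it was 0.56 (5.44e-09) once trends with GC content and length had been removed. Both differences from Ni-E passed in all of the alternative fits and without any 1 library.

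STEAP3 (chromosome 2, 119981384 to 120023227, plus strand) encodes the endosomal ferrireductase that turns iron released from transferrin into the form that can be transported. UT libraries had 6.46 and 5.87 RPKM and Ni-E libraries 6.92 and 6.32 RPKM. The 2 Ni-W libraries were lowest, at 3.64 and 3.55 RPKM, and HCl3 lay between, at 5.13 and 4.93 RPKM, and Ni-W, HCl3 and the remaining 4 libraries did not overlap. Against UT the Ni-W mRNA was 1.76-fold lower (-0.82 ± 0.15, DESeq2 adjusted P = 7.49e-07), and against Ni-E 1.83-fold lower (-0.87 ± 0.15, 3.24e-08). Both falls passed in every alternative fit and without any 1 library.

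The HCl3 value of STEAP3 was -0.34 ± 0.14 against UT (DESeq2 adjusted P = 0.0398), and it missed the threshold without UT 1 (0.252) or either HCl3 library (0.354 and 0.474). Against Ni-E it was -0.39 ± 0.13 (DESeq2 adjusted P = 0.0103), which missed the threshold without Ni-E 1 or either HCl3 library (0.168, 0.196 and 0.267). HCl3 was 1.40-fold above Ni-W when both were compared directly (0.48 ± 0.13, DESeq2 adjusted P = 0.00263), although the difference missed the threshold whenever 1 of the 4 libraries was left out (adjusted P = 0.0577 to 0.266). Ni-E did not differ detectably from UT (0.03, 95% interval -0.26 to 0.33). The gene overlaps STEAP3-AS1 on the opposite strand in GENCODE. Reads of the overlapping stretch cannot be told apart, because the sources do not say whether strand was used to count them. TFRC, IREB2 and NCOA4 also overlap genes on the opposite strand in GENCODE, and the same limit applies to them.

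SLC11A2 (chromosome 12, 51379775 to 51422058, minus strand), the transporter DMT1 that carries iron out of the endosome, varied little. Its 8 libraries spanned 10.18 to 12.02 RPKM, the highest 1.18 times the lowest. Its log2 fold changes ran from -0.19 (HCl3 against Ni-W, DESeq2 adjusted P = 0.188) to 0.11, and the 95% intervals over the 6 comparisons lay between -0.38 and 0.35. A 1.5-fold change was thus outside the interval in each comparison.

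SLC25A37, on chromosome 8, encodes mitoferrin-1, an iron importer of the inner mitochondrial membrane that is best known from developing red cells. UT libraries were at 7.57 and 5.48 RPKM, Ni-E libraries at 6.40 and 7.03 RPKM, Ni-W libraries at 8.27 and 6.47 RPKM, and HCl3 libraries at 6.79 and 7.94 RPKM, and the ranges of all groups overlapped. Log2 fold changes were between -0.02 and 0.14, with 95% intervals from -0.42 to 0.53 (lowest DESeq2 adjusted P = 0.582). In normalised counts the higher UT library was 1.38 times the lower, a wider gap than between the means of any 2 groups.

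FTH1 and FTL encode the heavy and light subunits of ferritin, the shell in which cytosolic iron is stored, where the heavy subunit oxidises iron on its way in and the light subunit helps it to mineralise. FTH1 (chromosome 11, 61731757 to 61735132, minus strand) was at 187 and 182 RPKM in UT, 235 and 268 RPKM in Ni-E, 227 and 229 RPKM in Ni-W, and 244 and 310 RPKM in HCl3. UT had the 2 lowest libraries, and all 6 libraries of cells that had met nickel were above them. Relative to UT, Ni-E was 1.31-fold higher (0.39 ± 0.11, DESeq2 adjusted P = 0.00579), Ni-W 1.21-fold (0.27 ± 0.10, 0.0185) and HCl3 1.45-fold (0.54 ± 0.11, 3.16e-05). These 3 values share the UT libraries.

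The order of FTH1 means was HCl3, Ni-E, Ni-W and UT. Ni-E differed from neither HCl3 nor Ni-W at the adjusted P value (DESeq2, 0.363 and 0.255), and HCl3 was 1.20-fold above Ni-W (0.27 ± 0.10, 0.042). Of that last difference, 0.08 was left without HCl3 2, the library at 310 RPKM (DESeq2 adjusted P = 0.985). The rise against UT missed the threshold without UT 2, Ni-E 1 or Ni-E 2 in Ni-E (DESeq2 adjusted P = 0.067 to 0.331), without any of the 4 libraries in Ni-W (0.0628 to 0.278), and without UT 1, UT 2 or HCl3 2 in HCl3 (0.124 to 0.209), while its direction held in each. With GC content and length trends removed, FTH1 was 0.32 higher in HCl3 than in Ni-E (DESeq2 adjusted P = 0.00295), and its difference between HCl3 and Ni-W missed the threshold (0.293), as it did in edgeR (0.0772).

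FTL (chromosome 19, 49468566 to 49470136, plus strand) behaved differently in the 2 washed-out populations. It was at 1217 and 1025 RPKM in UT, 1717 and 1583 RPKM in Ni-E, 1767 and 1539 RPKM in Ni-W, and 1172 and 1307 RPKM in HCl3. Ni-E and Ni-W libraries were all above those of UT and HCl3, which overlapped. Ni-E was 1.42-fold above UT (0.50 ± 0.12, DESeq2 adjusted P = 0.000597) and Ni-W 1.44-fold (0.52 ± 0.11, 4.67e-05), and they did not differ detectably from each other (0.01, 95% interval -0.19 to 0.20).

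HCl3 was 1.34-fold below Ni-E in FTL (-0.43 ± 0.09, DESeq2 adjusted P = 4.24e-06) and 1.35-fold below Ni-W (-0.43 ± 0.08, 7.96e-06), and against UT it gave 0.09 (95% interval -0.12 to 0.30). The rise in Ni-E missed the threshold without UT 2 (DESeq2 adjusted P = 0.0626) or Ni-E 1 (0.169). The rise in Ni-W missed it without Ni-W 1 (DESeq2 adjusted P = 0.053), and the difference between HCl3 and Ni-W without HCl3 1 (0.0801). With GC content and length trends removed, FTL gave 0.21 in HCl3 against UT (DESeq2 adjusted P = 0.000348), 0.28 in Ni-W against Ni-E (0.00161), and -0.19 in HCl3 against Ni-E (0.0283). Without UT 1, the value of HCl3 against UT also passed (0.22, DESeq2 adjusted P = 0.0132). With limma on log2-transformed RPKM, all 4 differences in FTL missed the threshold (adjusted P = 0.0684 to 0.223), as did FTH1 in Ni-E and HCl3 against UT (0.0596 to 0.124). In Ni-E against UT, limma passed 0 of all 16427 genes, so the misses there are shared by every gene.

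Ferritin values carry an extra uncertainty, since GENCODE lists 25 pseudogenes named after FTH1 and 16 named after FTL, and reads with several alignments had been removed before counting. FTH1 also overlaps BEST1 on the opposite strand, which had 1 to 18 reads per library. Within a library, FTH1 RPKM divided by FTL RPKM was 0.153 and 0.177 for the UT pair, 0.137 and 0.169 for Ni-E, 0.128 and 0.149 for Ni-W, and 0.208 and 0.238 for HCl3. Both HCl3 libraries were above the other 6, whose groups lay close together. With 2 libraries a side, a two-sided exact permutation test of this ratio cannot give a P value below 0.333.

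**Figure D3:**
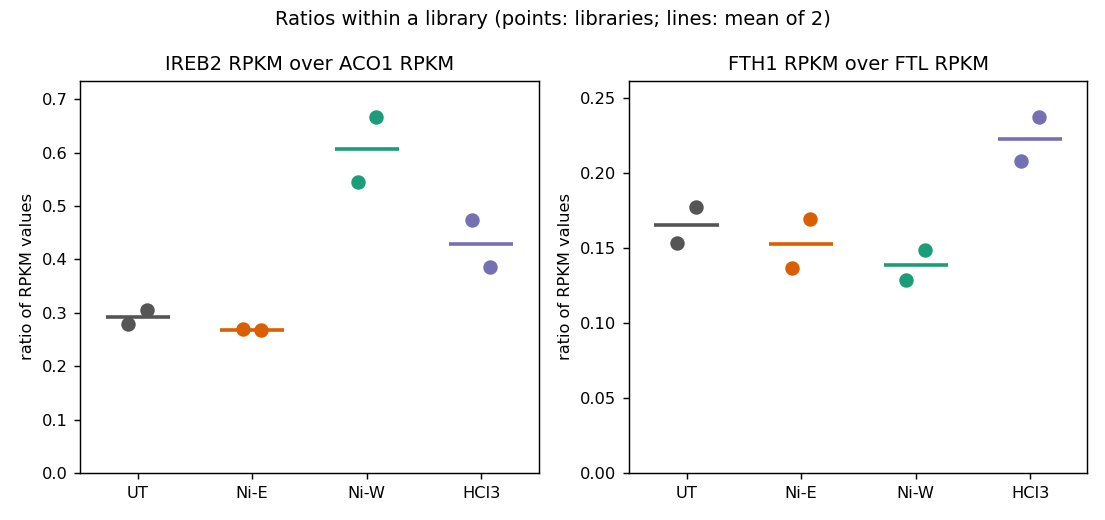
IREB2 RPKM divided by ACO1 RPKM (left) and FTH1 RPKM divided by FTL RPKM (right) in each library (points; lines are means of 2; axes start at 0). The left ratio is at most 0.306 in UT and Ni-E and at least 0.385 in Ni-W and HCl3, and the right ratio is above 0.2 in HCl3 alone.

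NCOA4 (chromosome 10, 51576285 to 51590734, plus strand) encodes the receptor that carries ferritin to the lysosome when its iron is needed. It was the steadiest member, from 63.1 to 72.2 RPKM over the 8 libraries, the highest 1.15 times the lowest. Log2 fold changes lay between -0.08 and 0.10, with 95% intervals from -0.29 to 0.27 (lowest DESeq2 adjusted P = 0.43). A 1.5-fold change was outside the interval in each comparison. In the deposited gene list NCOA4 overlaps TIMM23B on the same strand, which had 38 to 50 reads per library, and GENCODE lists 4 pseudogenes named after it.

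SLC40A1 (chromosome 2, 190425316 to 190445537, minus strand), which encodes the iron exporter ferroportin, showed the widest change of the 10. The UT libraries gave 39 and 21 reads (0.27 and 0.21 RPKM) and the Ni-E libraries 9 and 24 reads (0.07 and 0.19 RPKM). Ni-W libraries had 266 and 192 reads (1.54 and 1.64 RPKM) and HCl3 libraries 184 and 200 reads (1.33 and 1.39 RPKM). All 4 libraries of washed-out cells stood above all 4 of UT and Ni-E, although the level stayed low beside that of the other members.

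Against UT, SLC40A1 rose 6.30-fold in Ni-W (log2 fold change 2.66 ± 0.34, DESeq2 adjusted P = 6.13e-13) and 5.32-fold higher in HCl3 (2.41 ± 0.35, 2.13e-10). Against Ni-E it was 12.5-fold higher in Ni-W (3.64 ± 0.41, DESeq2 adjusted P = 5.83e-17) and 10.5-fold higher in HCl3 (3.40 ± 0.43, 6.54e-14). Each of these 4 passed in every alternative fit and without any 1 library. Their size against Ni-E differed with the Ni-E library that was kept. Without Ni-E 1, the library with 9 reads, it was 3.11 in Ni-W and 2.87 in HCl3, and without Ni-E 2 it was 4.49 and 4.25. In the nickel-exposed cells themselves SLC40A1 gave -0.99 ± 0.73 against UT (DESeq2 adjusted P = 0.454), with a 95% interval from -2.42 to 0.44 that these counts cannot narrow. HCl3 and Ni-W did not differ detectably (-0.24, 95% interval -0.67 to 0.19).

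ACO1 and IREB2 encode iron-regulatory proteins 1 and 2. The ACO1 protein switches between a cytosolic aconitase, when it holds an iron-sulfur cluster, and an RNA-binding form without it, whereas the IREB2 protein is degraded when iron is plentiful. ACO1 (chromosome 9, 32384601 to 32450832, plus strand) was at 42.1 and 45.2 RPKM in UT, 46.0 and 45.6 RPKM in Ni-E, 32.3 and 30.2 RPKM in Ni-W, and 36.2 and 38.4 RPKM in HCl3. The washed-out libraries were all below the others, Ni-W lowest, and UT and Ni-E did not differ detectably (0.02, 95% interval -0.20 to 0.23).

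ACO1 was 1.43-fold lower in Ni-W than in UT (-0.52 ± 0.11, DESeq2 adjusted P = 1.1e-05) and 1.46-fold lower than in Ni-E (-0.55 ± 0.09, 5.94e-08), and both falls passed in every alternative fit and without any 1 library. HCl3 was 1.22-fold below UT (-0.28 ± 0.10, DESeq2 adjusted P = 0.0147) and 1.24-fold below Ni-E (-0.31 ± 0.08, 0.000764). Both missed the threshold without either HCl3 library, at DESeq2 adjusted P values of 0.422 and 0.201 against UT and of 0.195 and 0.0536 against Ni-E. HCl3 was 1.18-fold above Ni-W (0.24 ± 0.08, 0.0201), which missed it without Ni-W 2 or either HCl3 library (0.135, 0.245 and 0.69).

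IREB2 (chromosome 15, 78730518 to 78793798, plus strand) moved the other way. It was at 11.7 and 13.8 RPKM in UT, 12.4 and 12.2 RPKM in Ni-E, 17.6 and 20.1 RPKM in Ni-W, and 17.2 and 14.8 RPKM in HCl3. Libraries of washed-out cells were all above those of UT and Ni-E, and UT and Ni-E overlapped. Ni-W exceeded UT 1.44-fold in IREB2 (0.53 ± 0.12, DESeq2 adjusted P = 0.000171) and Ni-E 1.54-fold (0.62 ± 0.11, 5.23e-08), of which the latter passed the 1.5-fold threshold. With GC content and length trends removed, the value against Ni-E was 0.39 (DESeq2 adjusted P = 9.61e-05), below that threshold.

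In HCl3, IREB2 was 1.29-fold above Ni-E (0.36 ± 0.10, DESeq2 adjusted P = 0.000963), which missed the threshold without HCl3 1 (0.26, 0.252). Against UT it gave 0.27 ± 0.12 (DESeq2 adjusted P = 0.0683), which passed without UT 2 (0.39, 0.00195) and with GC content and length trends removed (0.37, 1.96e-06). HCl3 gave -0.26 ± 0.10 against Ni-W (DESeq2 adjusted P = 0.0523), which passed without Ni-W 1 (-0.36, 0.0104). Without Ni-W 2, the library at 20.1 RPKM, the difference of Ni-W from UT was 0.43 (DESeq2 adjusted P = 0.0967). Within a library, IREB2 RPKM divided by ACO1 RPKM was 0.278 and 0.306 for the UT pair and 0.269 and 0.268 for Ni-E, against 0.546 and 0.667 for Ni-W and 0.474 and 0.385 for HCl3. All 4 ratios of washed-out cells were above the other 4.

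The genome was divided into windows of 10 Mb, and the log2 fold change of each member was set beside the median of the other genes in its window with a mean normalised count of at least 50. For ACO1, the 71 other genes had a median of -0.67 in Ni-W against UT and -0.30 in HCl3, beside -0.52 and -0.28 for ACO1 itself. For IREB2, the medians of 69 and 70 other genes were 0.48 in Ni-W and 0.47 in HCl3, beside 0.53 and 0.27 for the gene. In both windows the median of the neighbours had the sign of the member. The IREB2 value in HCl3, which had not passed the adjusted P value, was smaller than the median of its neighbours.

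Other members parted from their surroundings. SLC40A1 rose by 2.66 and 2.41 where the 29 other genes of its window had medians of 0.40 and 0.25. STEAP3 gave -0.82 and -0.34 where its neighbours had -0.10 and -0.11, and FTL gave 0.52 in Ni-W where its neighbours had -0.06. FTH1 gave 0.27 and 0.54 against -0.15 and -0.05. In Ni-E against UT, the medians around TFRC, FTH1 and FTL were -0.06, 0.11 and 0.12, beside 0.38, 0.39 and 0.50 for the genes. Copy number was not measured in these libraries, and what the neighbours share with a member was not tested.

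**Figure D4:**
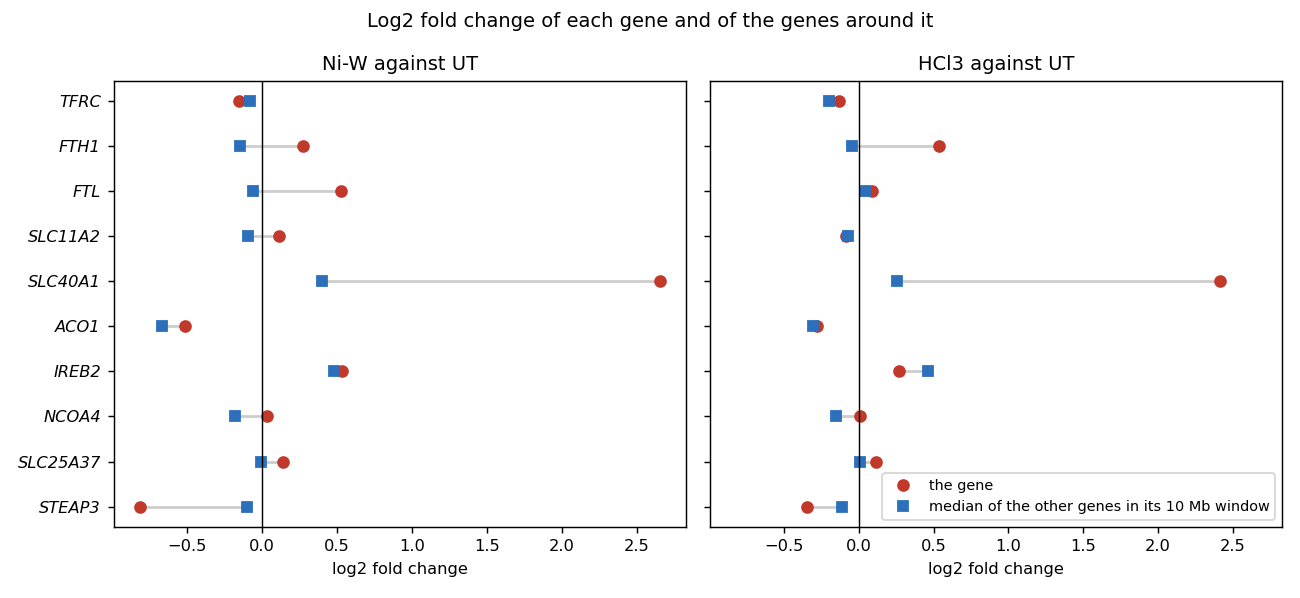
Log2 fold change of each gene (circles) and median log2 fold change of the other genes in its 10 Mb window (squares) in Ni-W against UT and HCl3 against UT. Circle and square lie close for ACO1 (-0.52 and -0.67 in Ni-W) and IREB2 (0.53 and 0.48), and far apart for SLC40A1 (2.66 and 0.40).

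A list of 79 other genes of iron, haem and iron-sulfur (Fe-S) handling gives the surroundings of these 10 in the pathway. In Ni-E against UT, 7 of the 68 tested passed the adjusted P value, all higher, a share of 10.3% beside 11.6% of all genes. In Ni-W against UT, 12 of 69 were higher and 15 lower, 39.1% beside 31.1%, and in HCl3 12 of 68 were higher and 12 lower, 35.3% beside 31.4%. Shares were largest against Ni-E, with 14 higher and 31 lower in Ni-W, 65.2% beside 39.2%, and 12 higher and 30 lower in HCl3, 60.9% beside 37.6%. The washed-out populations differed in 8 of 67, 11.9% beside 16.6%. With GC content and length trends removed, 14 were higher and 21 lower in Ni-W than in Ni-E, 50.7% beside 38%. In HCl3, 13 were then higher and 22 lower than in Ni-E, 51.5% beside 37.3%. Over the list, the median log2 fold change was -0.28 and -0.26 in these comparisons, where that of all genes was 0.02 and 0.01, and -0.16 and -0.12 with those trends removed.

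The counts over this list moved with single libraries, as did those over all genes. In Ni-E against UT, 1 fit of all 8 libraries gave 13 higher and 3 lower, 24.2% beside 21.2% of all genes. Leaving out 1 library, the median log2 fold change of the list was 0.098 to 0.156 in Ni-E against UT. It was -0.158 to -0.045 in Ni-W against UT and -0.135 to -0.069 in HCl3 against UT. Against Ni-E it was -0.34 to -0.231 in Ni-W and -0.288 to -0.236 in HCl3. In HCl3 against Ni-W it was -0.016 to 0.03. The median of all genes lay between -0.008 and 0.017 in these fits.

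Among the genes of this list that were called against UT, the widest changes were in uptake routes other than transferrin. SLC39A8 encodes ZIP8, a metal importer of the plasma membrane that carries zinc, manganese and iron. The UT libraries gave 41 and 21 of its reads, the Ni-E libraries 91 and 75, the Ni-W libraries 980 and 521, and the HCl3 libraries 413 and 450. Levels rose from UT to Ni-E (log2 fold change 1.30 ± 0.47, DESeq2 adjusted P = 0.0479) and were higher in Ni-W (4.28 ± 0.27, 4.02e-52) and HCl3 (3.53 ± 0.29, 1.4e-32), with HCl3 below Ni-W (-0.75 ± 0.16, 4.93e-05).

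SLC22A17, a receptor for the siderophore-binding protein lipocalin-2, was counted 27 and 5 times in the UT libraries, 96 and 114 times in the Ni-E libraries, 332 and 205 times in those of Ni-W, and 267 and 303 times in those of HCl3. Log2 fold changes against UT were 2.64 ± 0.54 for Ni-E (DESeq2 adjusted P = 5.17e-05), 3.81 ± 0.41 for Ni-W (2.1e-18) and 3.92 ± 0.40 for HCl3 (3.1e-21). CYBRD1, a ferric reductase of the cell surface, was at 17.8 to 21.1 RPKM in UT and Ni-E and at 38.3 to 45.0 RPKM in the washed-out libraries, or 0.88 ± 0.10 above UT in Ni-W (6.08e-16) and 1.05 ± 0.09 in HCl3 (9.93e-27). The neighbours of CYBRD1 in its window had medians of 0.43 and 0.33. In Ni-W against UT, 5 of the 8 genes tested in this subgroup were called, all higher, beside 15.7% of all genes. The other 2 called were LCN2 and STEAP2, which had too few reads for the rule on named genes. SLC39A14, the importer ZIP14, was lower at the adjusted P value (-0.45 ± 0.10, DESeq2 adjusted P = 5.25e-05) but not by 1.5-fold. These 3 genes were named after their values had been seen.

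**Figure D5:**
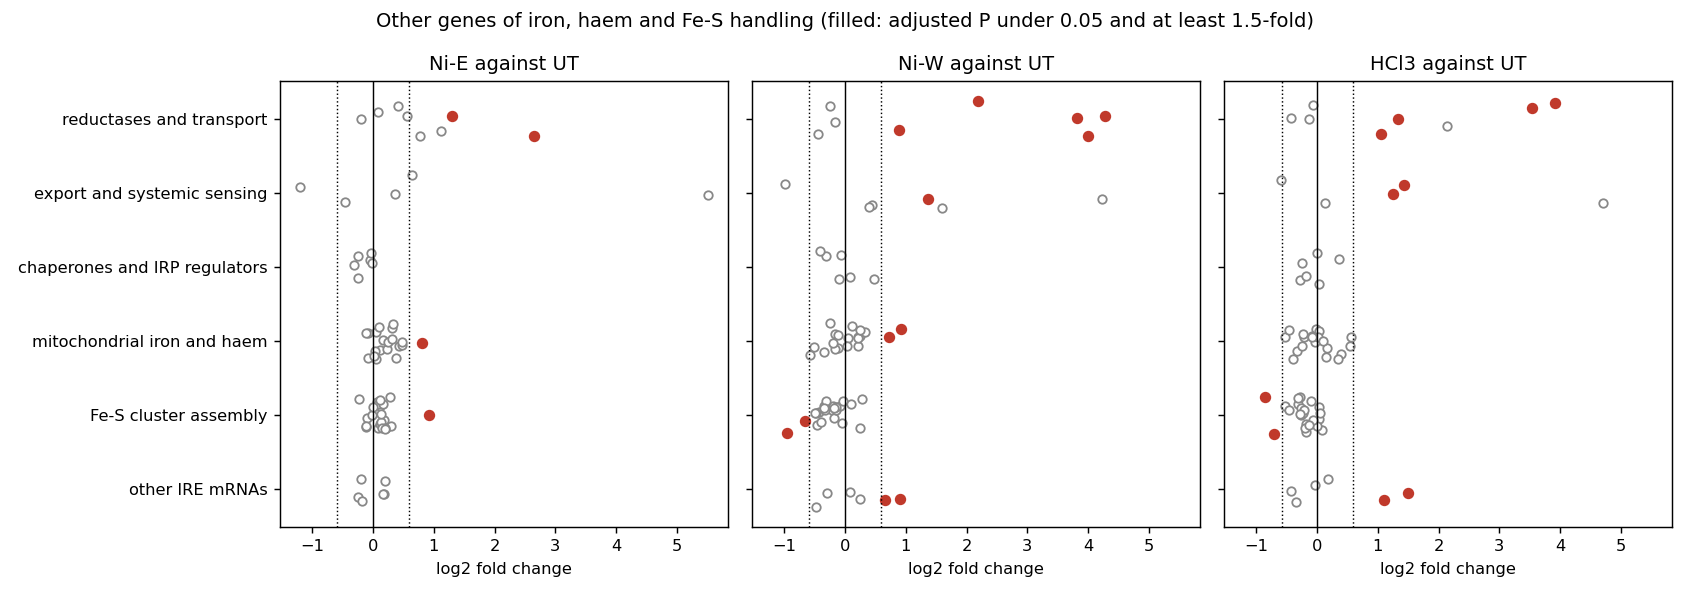
Log2 fold change against UT (horizontal axes) of the other genes of iron, haem and Fe-S handling, by subgroup, for each of the 3 other groups, with points spread vertically only for sight. Filled points passed an adjusted P value of 0.05 and 1.5-fold (dotted lines). Ni-E has 4 filled points, Ni-W 12 and HCl3 10, and the farthest of them are the importer SLC39A8 and the receptor SLC22A17.

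Among the genes of export and systemic sensing, NEO1, a co-receptor in the signal that sets hepcidin, was higher by 1.37 ± 0.12 in Ni-W (DESeq2 adjusted P = 3.39e-29) and by 1.24 ± 0.11 in HCl3 (4.85e-27) than in UT. It lies in the window of IREB2, and the other genes around NEO1 had medians of 0.48 and 0.45. FAM132B, the gene of the hormone erythroferrone, differed between the washed-out populations (0.99 ± 0.17, DESeq2 adjusted P = 2.78e-07). It was at 2.25 and 2.03 RPKM in Ni-W and 4.23 and 4.35 RPKM in HCl3. The 47 other genes of its window had a median of 0.34 in HCl3 against Ni-W. HAMP, which encodes hepcidin, had 0 reads in each library, where 3 reads would be a share of 6.57e-06 to 1.14e-05% of the counts.

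A group of 6 other mRNAs for which an IRE or a like hairpin has been described had 0 genes past the adjusted P value in Ni-E against UT, and 2 higher and 1 lower in both Ni-W and HCl3, beside 31.1% and 31.4% of all genes in either direction. The 2 higher were EPAS1 and HIF1A, which encode the oxygen-regulated subunits of hypoxia-inducible factors. HIF1A was at 23.8 to 27.9 RPKM in UT and Ni-E, 48.3 and 53.9 RPKM in Ni-W, and 80.4 and 75.4 RPKM in HCl3. It was 0.91 ± 0.11 above UT in Ni-W (DESeq2 adjusted P = 1.36e-14), 1.49 ± 0.10 in HCl3 (3.46e-51), and 0.58 ± 0.08 higher in HCl3 than in Ni-W (4.33e-11). EPAS1 was 0.67 ± 0.11 above UT in Ni-W (9.39e-08) and 1.10 ± 0.10 in HCl3 (1.27e-24). Neither held the hairpin searched for here in its annotated UTRs.

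Fe-S cluster assembly makes the cofactor that decides the state of the ACO1 protein. Of its 23 genes, 17 were lower and 1 higher in Ni-W than in Ni-E, and 16 were lower and 0 higher in HCl3 than in Ni-E (DESeq2 adjusted P value under 0.05), beside 19.4% and 19.2% of all genes lower. Against UT, 8 were lower in Ni-W and 5 in HCl3, beside 13.6% and 14.3%, and 1, FDXR, was higher in Ni-E, beside 6.08%. With GC content and length trends removed, 9 were lower and 1 higher in each of the 2 comparisons with Ni-E. Of all genes, 2981 of 15989 were then lower in Ni-W and 2828 of 15603 in HCl3. In both directions together, the share of the 23 genes was 43.5%, beside 38% of all genes in Ni-W and 37.3% in HCl3. Without 1 library of Ni-W or HCl3, fewer passed against UT and against Ni-E, in these genes and over all genes alike. Leaving out 1 library at a time, their median log2 fold change against UT was -0.33 to -0.22 in Ni-W and -0.26 to -0.17 in HCl3. Against Ni-E it was -0.49 to -0.37 in Ni-W and -0.39 to -0.32 in HCl3.

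BOLA3, which helps to deliver clusters in mitochondria, was lower than UT in Ni-W (-0.95 ± 0.17, DESeq2 adjusted P = 4.82e-07) and in HCl3 (-0.85 ± 0.15, 1.83e-07). The other genes of its window had medians of -0.259 and -0.175. HSCB, the co-chaperone of cluster transfer, gave -0.65 ± 0.18 (0.00198) and -0.70 ± 0.17 (0.000412). FDXR, the reductase that feeds electrons to ferredoxin, was at 24.4 and 19.0 RPKM in UT, 45.1 and 39.3 RPKM in Ni-E, 22.2 and 20.7 RPKM in Ni-W, and 22.7 and 24.5 RPKM in HCl3. Its rise in Ni-E (0.92 ± 0.15, DESeq2 adjusted P = 9.53e-08) stood beside values of -0.03 in Ni-W and 0.07 in HCl3 against UT, and Ni-W was below Ni-E by a log2 fold change of -0.97 (1.59e-14).

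In mitochondrial iron and haem handling, 3 of 20 genes tested were higher in Ni-E than in UT, beside 6.08% of all genes, of which BLVRB, biliverdin reductase B, was called (0.80 ± 0.16, DESeq2 adjusted P = 1.73e-05). ALAD, the second enzyme of haem synthesis, was 0.73 ± 0.13 above UT in Ni-W (DESeq2 adjusted P = 1.98e-07) and 0.56 ± 0.12 in HCl3 (2.55e-05). Its neighbours had medians of 0.265 and 0.136. ABCG2, a transporter that exports porphyrins, was 0.92 ± 0.37 above UT in Ni-W (DESeq2 adjusted P = 0.0418), where its neighbours had a median of -0.118. Iron chaperones and regulators of the iron-regulatory proteins, a group of 6, had 0 genes past 1.5-fold with DESeq2 in Ni-E, Ni-W and HCl3 against UT, and 0, 3 and 2 past the adjusted P value alone, beside 11.6%, 31.1% and 31.4% of all genes.

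For TFRC and FTH1, the genes with the most similar profile over the 8 libraries were listed from 12015 genes, by the root mean square difference of centred log2 normalised counts. For TFRC these were MMAA, POC1B, TMEM68, CCNG1 and C17orf100, at differences of 0.055 to 0.072, beside a spread of 0.23 for TFRC itself. For FTH1 they were B3GALT6, EPHX1, ZNF579, DAGLB and ANO8, at 0.065 to 0.084, beside 0.22. The measure describes these 8 libraries, and other genes of iron handling were not among the 5 nearest in either list.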

How the data were processed

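RNA-Seq of 8 BEAS-2B libraries was analysed from per-library gene tables. As described by the authors, reads were aligned to hg19 with STAR 2.4, reads with several alignments were removed, and the deposited counts and RPKM values per RefSeq gene were made with BioWardrobe. Whether strand was used is not given in the sources used here. RPKM values were used for levels and the counts for tests.

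Each pair of groups was fitted alone over all genes with DESeq2 1.42.0 (R 4.3.3; two-sided Wald test, Benjamini-Hochberg adjustment over all genes tested, default filter), and a gene was called at an adjusted P value under 0.05 with at least 1.5-fold change. Intervals are 95% Wald intervals. Alternatives were edgeR 4.0.16 (quasi-likelihood), limma 3.58.1 on log2-transformed RPKM with a pseudocount of 1 or 0.1, TMM scaling, 1 fit of all 8 libraries, a mean count of at least 10, a suffix block, removal of lowess trends with GC content and length (span 0.3; 98.78% of 13856 genes had a GC value, all 10 members among them), other fold thresholds, and leaving out each library. In data simulated for Ni-E against UT with 200 of 25411 genes changed, DESeq2 recovered 195 with 0 false calls, edgeR 199 with 0, and limma 103 with 5. With a GC trend planted as well, DESeq2 recovered 186 with 1262 false calls, and 197 with 1 false call once the trend had been removed. The planted changes were at least 2-fold, lay in well-counted genes, and all genes were given the same spread. The simulation therefore does not cover changes as small as most of those of the members, or genes that vary more.

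The members, the list of 79 other genes and the markers were chosen with earlier results of these data known. All 10 members are named. Of the other genes, up to 4 per subgroup were named, from those called against UT with a mean normalised count of at least 50. Hairpins were searched in GENCODE v44 transcripts. Comparisons made by the authors were not used. Tables and plots were made with Python 3.11.15, pandas 2.3.3, numpy 2.4.6 and matplotlib 3.10.9.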

Additional observations from a re-analysis of the deposited data

Results flagged for a closer look

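Of the 10 iron genes, 4 differed between the washed-out populations when HCl3 was tested directly against Ni-W with DESeq2. HCl3 was higher in FTH1 (log2 fold change 0.27), ACO1 (0.24) and STEAP3 (0.48), and lower in FTL (-0.43). In each, the 2 HCl3 libraries did not overlap the 2 Ni-W libraries in normalised counts. That adds no support, since the 4 genes were picked by this same comparison. SLC11A2, SLC40A1 and IREB2 did not overlap there either, and they did not pass. For FTH1 the difference rested mainly on HCl3 2, and without that library it was 0.08. The DESeq2 adjusted P values of FTH1, ACO1, STEAP3 and FTL were 0.042, 0.0201, 0.00263 and 7.96e-06. None of the 4 reached 1.5-fold, and each missed the threshold without at least 1 library, as given beside the genes. The labels number the experiments of HCl3 but not of Ni-W, and the cause of the differences was not tested.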

How the results depend on the processing

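With 2 libraries per group, DESeq2 takes the spread of a gene from both groups together and draws it toward a trend over all genes. The SLC40A1 values rest on as few as 9 reads. The 60 log2 fold changes of the 10 genes were recomputed 810 times under alternatives. Of the values from the 28 that passed the adjusted P value, 293 passed again in the same direction, 83 missed it in the same direction, and 0 changed sign. Of the values from the others, 371 stayed on their side, 18 passed, and 45 changed sign. A fit without 1 library leaves that group with a single library, which is then taken to vary like the other group. TMM scaling moved the median log2 fold change of all genes by between -0.0188 and 0.0041.

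Members called changed as follows, and the cause was not tested except where the threshold itself was altered. Without a fold threshold they were 3 in Ni-E against UT, 6 in Ni-W against UT and 4 in HCl3 against UT. They were 5 in Ni-W against Ni-E, 6 in HCl3 against Ni-E and 4 in HCl3 against Ni-W. Over all genes, 11.6%, 31.1%, 31.4%, 39.2%, 37.6% and 16.6% passed without that threshold, in this order. At 2-fold 1 was left in Ni-W against UT and 1 in Ni-W against Ni-E. Counts of all genes at 2-fold are not given here. With GC content and length trends removed, 3 were called in Ni-W against UT, beside 2 in the reported fit, and 2 in HCl3 against UT, beside 1. There were 4 in Ni-W against Ni-E, beside 3, and 2 in HCl3 against Ni-E, beside 1. These counts held with the replicate block added or not. Without the block, 2499, 2228, 2899 and 2510 of all genes were then called in these 4 comparisons, beside 2484, 2333, 3276 and 2734. Under that removal FTL passed 1.5-fold in Ni-W against UT (0.67) and FTH1 in HCl3 against UT (0.64), TFRC (-0.75) and ACO1 (-0.62) in Ni-W against Ni-E, and TFRC in HCl3 against Ni-E (-0.62), while IREB2 no longer did in Ni-W against Ni-E (0.39). Leaving out 1 library gave 0 to 1 in Ni-E against UT, 3 in each fit of Ni-W against UT, 1 to 2 in HCl3 against UT, 2 to 4 in Ni-W against Ni-E, 1 to 2 in HCl3 against Ni-E, and 0 in HCl3 against Ni-W. Over all genes, fewer passed the adjusted P value in every fit without 1 library. For the list of 79 other genes, the counts without a fold threshold were 7, 27, 24, 45, 42 and 8 in the same order of comparisons. At 2-fold they were 2 in Ni-E against UT, 5 in Ni-W against UT, 6 in Ni-W against Ni-E, 4 in HCl3 against Ni-E and 1 in HCl3 against Ni-W. With limma on log2(RPKM + 1) or log2(RPKM + 0.1) the count in Ni-E against UT was 0 and 0, beside 4 with DESeq2. Both limma fits passed 0 of all 16427 genes in that comparison, so this 0 is not particular to the list. Leaving out 1 library gave 2 to 3 in Ni-E against UT and 2 to 4 in HCl3 against Ni-W.

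Sign changes concerned only log2 fold changes that had not passed. With GC content and length trends removed, alone and with the replicate block, FTH1 was 0.0686 and 0.07 and SLC11A2 -0.0181 and -0.02 in Ni-W against Ni-E, IREB2 0.1273 and 0.1272, NCOA4 0.0159 and 0.0159 and STEAP3 -0.0585 and -0.0598 in Ni-E against UT, and NCOA4 0.0348 and 0.0367 in HCl3 against Ni-W. With both together NCOA4 was -0.0007 in Ni-W against Ni-E. FTL in Ni-W against Ni-E was -0.0013 with edgeR and -0.0093 with TMM scaling. With limma at pseudocounts of 1 and 0.1, SLC25A37 was 0.0488 and 0.0574 in Ni-E against UT and 0.0041 and 0.0053 in HCl3 against Ni-W.

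Leaving out 1 library, the ranges that crossed 0 were, in Ni-E against UT, -0.0578 to 0.0844 for SLC11A2, -0.0366 to 0.066 for ACO1, -0.2261 to 0.0121 for IREB2, -0.2324 to 0.2331 for SLC25A37 and -0.0496 to 0.1173 for STEAP3. In Ni-W against UT they were -0.0437 to 0.1078 for NCOA4 and -0.0768 to 0.3914 for SLC25A37. In HCl3 against UT they were -0.2713 to 0.0245 for TFRC, -0.0326 to 0.2167 for FTL, -0.0707 to 0.0812 for NCOA4 and -0.0978 to 0.3703 for SLC25A37. In Ni-W against Ni-E they were -0.0934 to 0.1008 for FTL and -0.0451 to 0.3037 for SLC25A37. FTH1 ranged from -0.054 to 0.303 in HCl3 against Ni-E, and in HCl3 against Ni-W NCOA4 ranged from -0.0662 to 0.0197 and SLC25A37 from -0.1766 to 0.1662.

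The libraries of a group are told apart by a suffix that pairs nothing across groups. Correlations of the deviations of libraries with the same suffix were -0.116, 0.222, -0.159, -0.107, 0.00109 and -0.0535 in the order of comparisons above. With the suffix as a replicate block, members past the adjusted P value numbered 1, 6, 2, 5, 5 and 1, beside 3, 6, 4, 5, 6 and 4 without it, members called stayed at 0, 2, 1, 3, 1 and 0, and all genes called were 491, 2134, 1779, 2748, 2290 and 455, beside 840, 2484, 2333, 3276, 2734 and 713. A crossed pairing, chosen after seeing the data, gave 632 calls in Ni-E against UT, 1880 in HCl3 against UT and 2851 in Ni-W against Ni-E.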
